A study of Mus musculus with 28 samples.

Results

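The genes described here are Kit and its ligand Kitl with 6 genes of the phosphoinositide 3-kinase (PI3K) route that acts below the receptor in the oocyte: Pik3ca, Akt1, Foxo3, Tsc1, Tsc2 and Rps6kb1. They were chosen by symbol. Symbols were matched to the gene identifiers of the mouse ovary data, and all 8 were found among the 44674 identifiers of the whole-ovary count table and among the 23532 genes seen in at least 3 single cells. All 8 passed the low-count filter that left 26790 genes for testing in whole ovaries.

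In the juvenile mouse ovary most oocytes rest in primordial follicles, each enclosed by flat pregranulosa cells. KIT is a receptor tyrosine kinase on the oocyte surface, and KITL is its ligand, made by the surrounding granulosa cells. When KIT is engaged, PI3K makes a membrane lipid that recruits the kinase AKT, AKT phosphorylates the transcription factor FOXO3, and FOXO3 leaves the oocyte nucleus, which releases the follicle from rest. A second branch runs through the TSC1-TSC2 complex, which holds the growth kinase complex mTORC1 in check, and through S6 kinase, which mTORC1 activates. These steps are controlled largely by phosphorylation and location of the proteins, so transcript levels describe the supply of each component and not the activity of the pathway.

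Ovaries came from 4 groups of females that differed in genotype and treatment. Wild-type animals were C57BL/6J, and the mutants, called Chek2-/- here, carried the Chek2tm1b(EUCOMM)Hmgu allele, which removes CHEK2, a checkpoint kinase activated by DNA breaks. Animals of either genotype received a total body dose of 0.5 Gy from a caesium source or a sham treatment, and ovaries were taken 6 h later. Whole-ovary RNA was sequenced in 6 libraries per group, each from the paired ovaries of a female 7 to 9 days old, while single cells came from 4 females of 7 days pooled into 1 library per group, so the single-cell groups have no replicate. The comparison asks whether irradiation, the loss of CHEK2, or both alter these genes, and which ovarian cells carry them.

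Whole-ovary libraries held 17825167 to 32605747 counts. Levels are given in CPM, the usual counts-per-million scale. Chek2 itself was at 19.8 to 24.6 CPM in the 6 sham-treated wild-type libraries and at 2.88 to 4.44 CPM in the 6 sham-treated Chek2-/- libraries, so the targeted gene was low in each mutant library. The 2 Chek2-/- libraries numbered 6 stood apart from the others: the summed level of 8 oocyte markers was 1058 CPM in the sham-treated library and 1188 CPM in the irradiated library, against 1905 to 2155 CPM in the other Chek2-/- libraries, and the summed level of 7 granulosa markers was 791 and 787 CPM against 1285 to 1673 CPM. Their epithelial marker sums of 1200 and 1028 CPM were the highest of their groups. Kitl, Foxo3 and Kit had their most extreme values in these libraries. For each of these genes the irradiation effect in Chek2-/- ovaries is given with and without them. The same is done for Kitl and Foxo3 between the sham-treated genotypes, and for the contrast of the genotypes' irradiation effects on Kit. Other comparisons of these genes are not given in this way. Blood cell markers stood apart in other libraries: the summed level of 6 erythroid markers was 10450 CPM in sham-treated Chek2-/- library 5 and 7047 CPM in irradiated Chek2-/- library 2, against 198 to 926 CPM elsewhere, and the sum of 4 neutrophil markers was 850.3 CPM in irradiated wild-type library 3 and 879 CPM in irradiated Chek2-/- library 2, against 13.9 CPM at most elsewhere. The single-cell libraries gave 36524 usable cells, with a median of 13908 to 17135 transcript molecules (unique molecular identifiers, UMIs) per cell, and any 2 libraries shared 15 to 31 cell barcodes.

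In whole ovaries none of the 8 genes passed an adjusted p of 0.05 after irradiation, in either genotype. In wild-type ovaries 0 of 8 were called, where 2.41% of all genes tested were, and 1 of the 8 had an unadjusted p under 0.05 (11.4% of all genes did). In Chek2-/- ovaries 0 of 8 were called against 0.0112% of all genes, and 0 of 8 had an unadjusted p under 0.05 (4.40% of all genes did). The irradiation effect differed between the genotypes for 0 of 8 genes, against 1.03% of all genes, with 3 of 8 at an unadjusted p under 0.05 and 9.14% of all genes. Between the sham-treated genotypes 1 of 8 was called, Kitl, against 5.34% of all genes, 3.12% being higher in Chek2-/- ovaries. The p-values come from edgeR's quasi-likelihood test and measure the spread between these libraries. In whole ovaries, fewer cells of a type and less RNA per cell cannot be told apart.

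**Figure D1:**
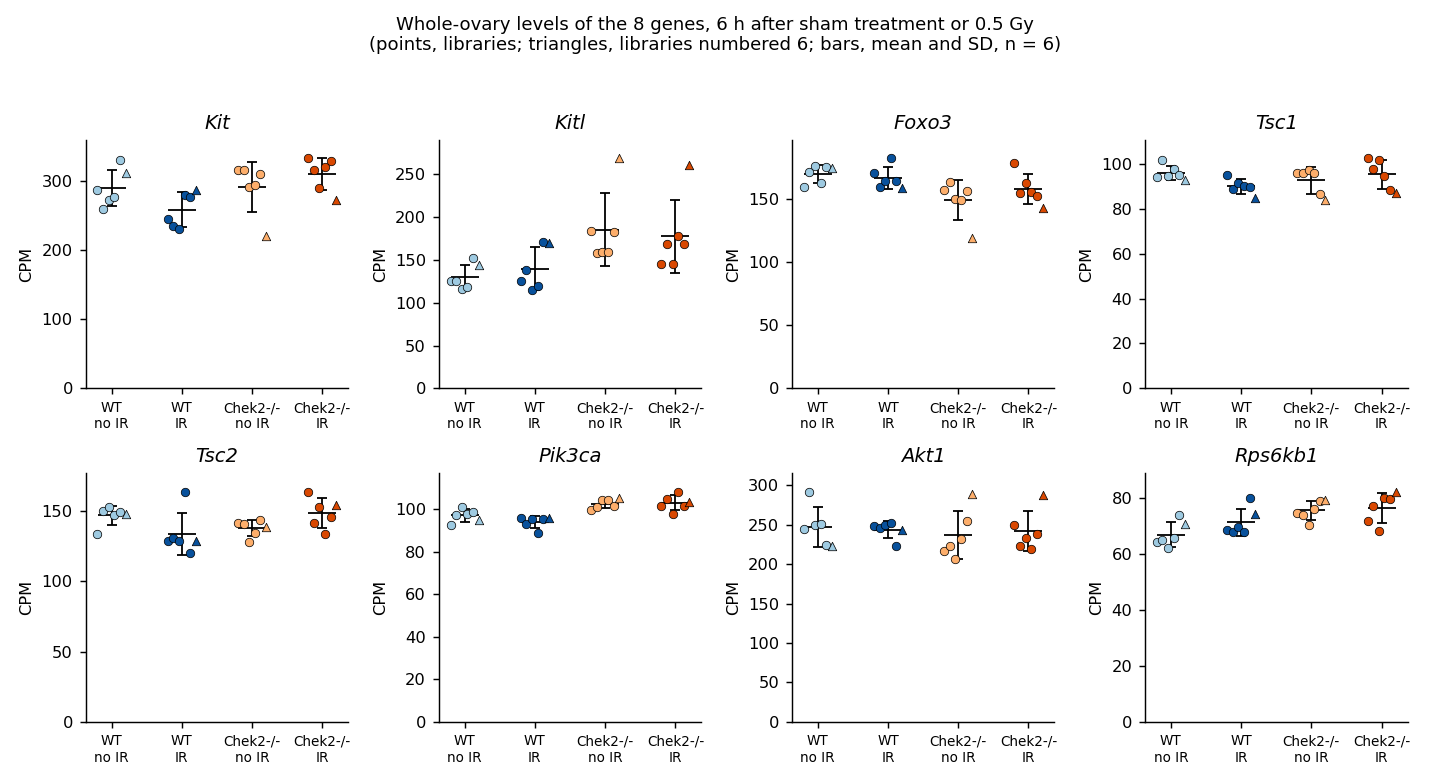
Whole-ovary level of each of the 8 genes in CPM (vertical axis) in the 4 groups (horizontal axis), with 1 point per library, triangles for libraries numbered 6, and bars for the mean and SD of 6 libraries. Kitl was at 158 to 268 CPM in the 6 sham-treated Chek2-/- libraries and at 116 to 151.5 CPM in the 6 sham-treated wild-type libraries, while for the other 7 genes these groups overlapped.

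Kitl, the ligand, was the one gene of the set that differed by the test. Sham-treated wild-type ovaries held 116 to 151.5 CPM of Kitl with a median of 125, and sham-treated Chek2-/- ovaries held 158 to 268 CPM with a median of 171. The 6 mutant libraries lay above the 6 wild-type libraries, a separation seen in 3.22% of all genes tested in this comparison. The log2 fold change was 0.51 ± 0.14 (SE, n = 6 per group, edgeR adjusted p = 0.0387). The highest mutant value belonged to library 6, and the other 5 libraries reached 184 CPM at most. Without that library the log2 fold change was 0.37 and the call was lost (edgeR adjusted p = 0.091), and the call was also lost without wild-type library 1 (0.0614), 2 (0.0793), 3 (0.0895) or 4 (0.09) or mutant library 1 (0.0666), each value being an edgeR adjusted p. When both Chek2-/- libraries numbered 6 were left out together, Kitl was called at 0.37 on the log2 scale (edgeR adjusted p = 0.0265). Without mutant library 5, in which erythroid markers were high, Kitl was called at 0.52 (edgeR adjusted p = 0.044).

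Other differences between the sham-treated genotypes moved beside Kitl. Granulosa marker sums had medians of 1494 CPM in wild-type and 1368 CPM in mutant ovaries, so the ligand was higher in the group with the lower granulosa marker median, and endothelial marker sums had medians of 382 and 394 CPM. No marker of either list passed the test. Of the quiescent pregranulosa markers 2 of 5 were higher in mutant ovaries, with marker sums of 375 to 439 CPM in wild-type and 374 to 494 CPM in mutant ovaries. Among the steroidogenic theca markers 1 of 4 was higher, and among the oviduct and uterus markers 1 of 3. Fibroblast markers were lower in 3 of 7 cases, with sum medians of 4937 and 4135 CPM, as were 2 of 6 pericyte and 1 of 6 growing oocyte markers. None of the 6 erythroid markers passed the test, although their median log2 fold change was 2.32. The part of these lists in the Kitl difference was not tested. Nnt, a gene partly deleted in C57BL/6J mice, was at 26.6 to 36.4 CPM in wild-type and 58.5 to 78.3 CPM in mutant ovaries, so the genotypes also differ at a marker of strain background. Strain background and the loss of CHEK2 cannot be told apart for Kitl in this design.

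Irradiation left Kitl within the spread of the libraries. Irradiated wild-type ovaries held 115 to 170.1 CPM with a median of 132, and irradiated Chek2-/- ovaries held 145 to 260.2 CPM with a median of 168, and both ranges overlapped those of their sham-treated groups. The log2 fold change was 0.10 ± 0.14 in wild-type (SE, edgeR adjusted p = 0.90) and -0.06 ± 0.14 in Chek2-/- ovaries (edgeR adjusted p = 1). With both libraries numbered 6 left out, the Kitl effect in Chek2-/- ovaries was again -0.06, and without irradiated library 6 alone it was -0.21 and without sham-treated library 6 alone 0.08 (edgeR adjusted p = 1, 0.99 and 1). With all libraries the 95% intervals ran from -0.18 to 0.39 and from -0.34 to 0.22, so differences within these bounds were not excluded.

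Kit, the receptor, ranged from 260.0 to 329.6 CPM in sham-treated wild-type ovaries with a median of 282, and from 230.2 to 287 CPM after irradiation with a median of 261. Of the 6 irradiated libraries, 3 lay below the lowest sham-treated library. The log2 fold change of -0.16 ± 0.08 (SE, n = 6 per group) did not pass the test (edgeR adjusted p = 0.46). In Chek2-/- ovaries Kit was at 221 to 316 CPM with a median of 302 under sham treatment and at 272.5 to 333 CPM with a median of 318 after irradiation. Library 6 was the lowest of both mutant groups, as it was for the oocyte markers. The irradiation effect in Chek2-/- ovaries was 0.09 ± 0.08 (edgeR adjusted p = 1), and 0.06 with both libraries numbered 6 left out (edgeR adjusted p = 1). Subtracting this from the wild-type effect gave -0.25 ± 0.11 on the log2 scale (edgeR adjusted p = 0.50), and -0.21 without those libraries (edgeR adjusted p = 0.48). Summed markers of primordial-type oocytes had a median of 214 CPM in sham-treated and 155 CPM in irradiated wild-type ovaries, and their part in the Kit values was not tested.

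**Figure D2:**
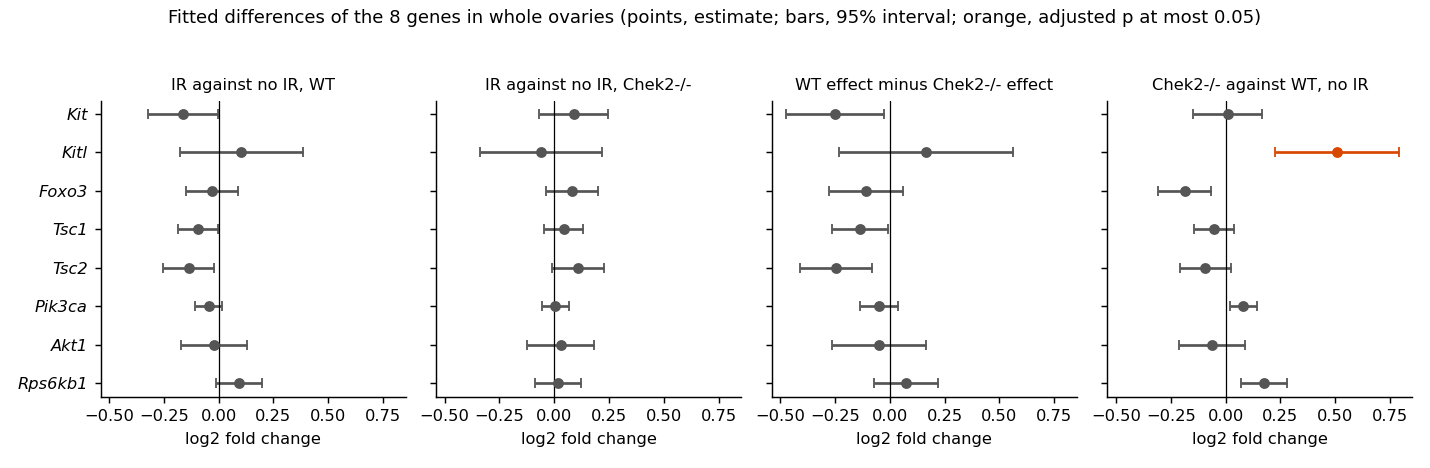
Fitted log2 fold change (horizontal axis) of each of the 8 genes in the 4 comparisons, with bars for the 95% interval and orange for an adjusted p of at most 0.05. Kitl in sham-treated Chek2-/- against wild-type ovaries, at 0.51, is the one orange point.

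Pik3ca, which encodes the catalytic p110-alpha subunit of PI3K, was among the steadiest of the 8 genes between libraries. Its coefficient of variation lay between 2.24% and 3.41% in the 4 groups. Sham-treated wild-type ovaries held 92.7 to 101 CPM with a median of 97.7, and irradiated ones 89.0 to 96.2 CPM with a median of 95.3. Sham-treated Chek2-/- ovaries held 99.5 to 105.3 CPM with a median of 103, and 5 of those 6 libraries lay above the highest wild-type library. The difference of 0.08 ± 0.03 on the log2 scale did not pass the test (edgeR adjusted p = 0.13), while it passed with DESeq2 (adjusted p = 0.033). Pik3ca after irradiation in Chek2-/- ovaries was at 98.0 to 108 CPM with a median of 103, a log2 fold change of 0.01 ± 0.03.

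Akt1, which encodes an AKT kinase, varied more between libraries than between groups. Its medians were 247 CPM in sham-treated wild-type, 247 CPM in irradiated wild-type, 227.5 CPM in sham-treated Chek2-/- and 236 CPM in irradiated Chek2-/- ovaries, and single libraries spanned 206 to 292 CPM. The 4 fitted differences lay between -0.06 and 0.03 on the log2 scale, and none passed the test.

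Foxo3, the factor that keeps primordial oocytes at rest, was at 160.2 to 176 CPM in sham-treated wild-type ovaries with a median of 173. Irradiated wild-type ovaries held 159 to 183 CPM with a median of 165, and the ranges overlapped. The log2 fold change was -0.03 ± 0.06 in wild-type (SE, edgeR adjusted p = 0.95) and 0.08 ± 0.06 in Chek2-/- ovaries (edgeR adjusted p = 1), and in the latter 0.05 without both libraries numbered 6 (edgeR adjusted p = 1). Sham-treated Chek2-/- ovaries held 119 to 164 CPM of Foxo3 with a median of 154, and 5 of these 6 libraries lay below the lowest wild-type library. That difference of -0.19 ± 0.06 did not pass the test (edgeR adjusted p = 0.0737), and the lowest Foxo3 value was again in library 6. The Foxo3 difference passed in 2 of 32 alternative analyses that set no 2-fold minimum. These were DESeq2 (adjusted p = 0.0301) and a fit with the replicate number as a block. Without both libraries numbered 6 the Foxo3 difference was -0.13 and did not pass (edgeR adjusted p = 0.0824).

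Tsc2 encodes the GTPase-activating subunit of the TSC complex, and Tsc1 the subunit that stabilises it. In wild-type ovaries Tsc2 was at 133.5 to 153 CPM under sham treatment with a median of 149 and at 120.4 to 164 CPM after irradiation with a median of 129. Of the 6 irradiated libraries 5 lay below the lowest sham-treated library, and library 4 lay above the highest. The log2 fold change was -0.14 ± 0.06 (edgeR adjusted p = 0.35). Without irradiated wild-type library 4 it was -0.20 and passed the test (edgeR adjusted p = 0.0191). The same held for the contrast of the 2 genotypes' irradiation effects on Tsc2, which was -0.31 without that library (edgeR adjusted p = 0.0144) and -0.25 ± 0.08 with it (edgeR adjusted p = 0.25). In Chek2-/- ovaries Tsc2 had medians of 139.7 CPM under sham treatment and 149 CPM after irradiation, which is 0.11 ± 0.06 on the log2 scale (edgeR adjusted p = 1). The Tsc2 call in wild-type ovaries thus depended on 1 library. That library also had the highest epithelial marker sum of its group, 1036 CPM against 416 to 673 CPM in the other 5, and its part in the Tsc2 value was not tested.

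Tsc1 was at 92.9 to 101.5 CPM in sham-treated and 84.9 to 95.04 CPM in irradiated wild-type ovaries, with medians of 94.8 and 89.9. Although 5 of 6 irradiated libraries lay below the lowest sham-treated library, the log2 fold change of -0.09 ± 0.05 did not pass the test (edgeR adjusted p = 0.45). In Chek2-/- ovaries Tsc1 had medians of 96.0 and 96.2 CPM.

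Rps6kb1, the gene for S6 kinase 1, was at 62.1 to 73.9 CPM in sham-treated wild-type ovaries with a median of 65.3 and at 70.5 to 79.3 CPM in sham-treated Chek2-/- ovaries with a median of 75.2. The log2 fold change of 0.17 ± 0.05 lay just outside the threshold (edgeR adjusted p = 0.0549). It passed under 11 of 32 alternative analyses that set no 2-fold minimum. Irradiation gave 0.09 ± 0.05 in wild-type (edgeR adjusted p = 0.58) and 0.02 ± 0.05 in Chek2-/- ovaries (edgeR adjusted p = 1).

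Over the 8 genes the median log2 fold change was -0.04 for irradiation in wild-type ovaries, 0.04 for irradiation in Chek2-/- ovaries and -0.02 between the sham-treated genotypes, against medians over all genes tested of -0.0041, 0 and 0.01. The fold changes of the members after irradiation lay between -0.16 and 0.10 in wild-type and between -0.06 and 0.11 in Chek2-/- ovaries.

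To place the 8 genes among their partners, 61 more genes of KIT, PI3K, AKT, FOXO, TSC and mTOR signalling were examined, making 69. After irradiation of wild-type ovaries 2 of the 69 rose and 1 fell, where 2.41% of all genes were called. Both that rose are among the 6 listed stress inputs to the TSC complex. Of those 6, 3 had a positive and 3 a negative log2 fold change, with a median of 0.02. The list was chosen with earlier results of these data known, so the calls are no result about the list or this part of it. Sesn2, a p53 target that restrains mTORC1, was at 14.9 to 19.1 CPM under sham treatment and 39.5 to 48.6 CPM after irradiation, with no overlap, which is 1.43 ± 0.12 on the log2 scale (edgeR adjusted p = 9.05e-09). Ddit4, also called REDD1, which acts on the TSC complex under stress, was at 45.8 to 55.8 CPM and then 65.6 to 84.2 CPM, again with no overlap, which is 0.52 ± 0.09 on the log2 scale (edgeR adjusted p = 0.000613). Groups separated in this way for 2.56% of all genes. The gene that fell, Rhebl1, a relative of the mTORC1 activator RHEB, went from a median of 8.81 to 6.36 CPM, which is -0.41 ± 0.09 on the log2 scale (edgeR adjusted p = 0.0095). Of 6 markers of primordial-type oocytes 2 were also called lower, and the median log2 fold change of the 6 was -0.39. Their part in the Rhebl1 value was not tested.

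In Chek2-/- ovaries 0 of the 69 genes passed the test after irradiation (edgeR), and 4 of 69 had an unadjusted p under 0.05, against 0.0112% and 4.40% of all genes. Sesn2 had medians of 19.0 and 22.6 CPM there and Ddit4 medians of 46.0 and 40.8 CPM. The irradiation effect was larger in wild-type than in Chek2-/- ovaries for both, by 1.18 ± 0.16 for Sesn2 (edgeR adjusted p = 0.000129) and by 0.68 ± 0.13 for Ddit4 (edgeR adjusted p = 0.00308). No other gene of the 69 passed that test.

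Between the sham-treated genotypes 4 of the 69 genes were higher in Chek2-/- ovaries and 1 was lower, where 5.34% of all genes were called and 3.12% were higher. The share is near the background, so it is no result about the list. Beside Kitl the higher genes included Rictor, the defining subunit of mTORC2, at 0.28 ± 0.06 on the log2 scale (edgeR adjusted p = 0.012) and Prkaa1, a catalytic subunit of the energy sensor AMPK, with 0.18 ± 0.05 (edgeR adjusted p = 0.0425). Pik3r2, a regulatory PI3K subunit, was lower by the test, at -0.31 ± 0.08 (edgeR adjusted p = 0.0247). Of these, Rictor was called in each of the 32 alternative analyses that set no 2-fold minimum, Pik3r2 in 26 and Prkaa1 in 17. Of the 32, 24 left out 1 library each. With a 2-fold minimum 0 of the 69 genes were called.

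The single-cell libraries show which cells held these transcripts. Cells were grouped without using the 69 genes, and groups were named by markers of each cell type, with "-like" added because the names rest on markers alone. There were 18594 fibroblast-like, 13388 granulosa-like, 1291 perivascular smooth muscle-like, 803 epithelial-like, 766 endothelial-like, 657 pericyte-like and 572 oocyte-like cells, and smaller groups of blood cells. Levels are again CPM, here the UMIs of a gene scaled to all UMIs summed over the cells of a group, and intervals are 95% Poisson intervals that cover counting error only.

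**Figure D3:**
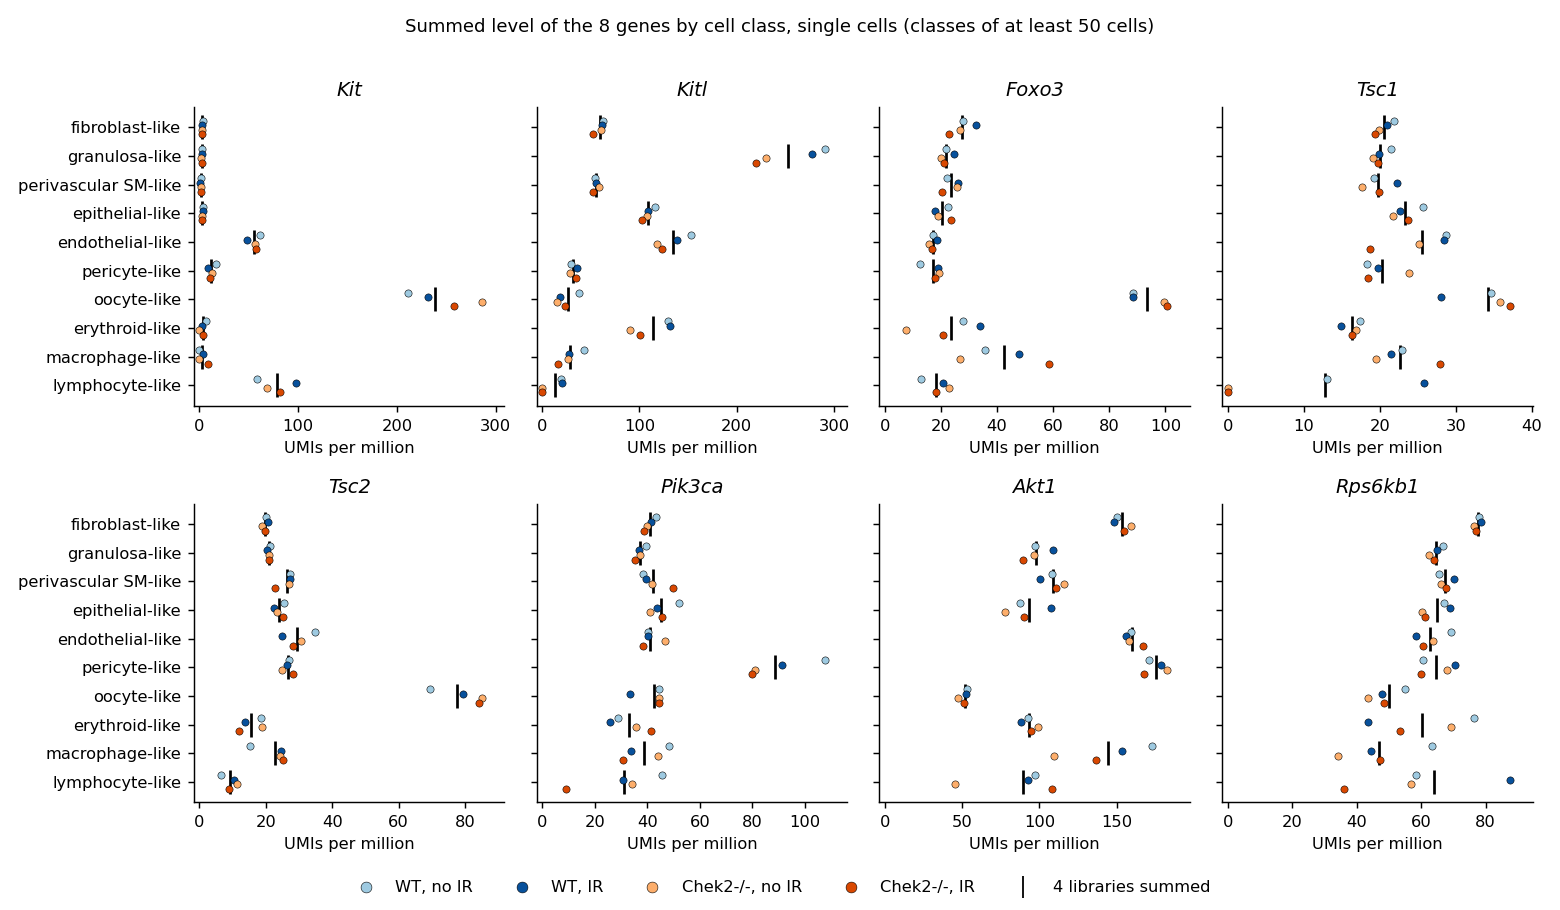
Level of each of the 8 genes (horizontal axis, CPM) in each group of at least 50 cells (vertical axis), with 1 point per library and a bar for the 4 libraries summed. Kit, Foxo3 and Tsc2 were furthest right in oocyte-like cells, Kitl in granulosa-like cells and Pik3ca in pericyte-like cells.

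Among groups of at least 50 cells, Kit was highest in oocyte-like and Kitl in granulosa-like cells, while endothelial-like cells held UMIs of both. Kit was at 239 CPM (interval 235 to 242) in oocyte-like cells, which supplied 86.5% of all its UMIs. By library its level there was 211 in sham-treated wild-type, 231 in irradiated wild-type, 286 in sham-treated Chek2-/- and 257 in irradiated Chek2-/- cells. Next among groups of at least 50 cells came lymphocyte-like cells with 78.7 (56.9 to 106) and endothelial-like cells with 55.2 (51.5 to 59.1), whose intervals overlapped. Granulosa-like cells were at 2.29 and fibroblast-like cells at 2.76. The highest level of all, 1022 (871 to 1192), was in the 22 mast cell-like cells, a cell type in which KIT is a defining receptor, but these gave only 163 UMIs.

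Because deeper cells show a UMI more often, cells with at least 2000 UMIs were also thinned to that number and shallower cells were left out. Among oocyte-like cells this left out 1 of 194 in the sham-treated and 19 of 165 in the irradiated wild-type library, and 0 of 75 and 15 of 138 in the Chek2-/- libraries, while in each library at most 51 granulosa-like, 23 fibroblast-like and 7 endothelial-like cells were left out. A Kit UMI was then seen in 30.8% to 42.7% of oocyte-like cells over the 4 libraries, 9.05% to 12.2% of endothelial-like, 0.538% to 0.878% of fibroblast-like and 0.257% to 0.693% of granulosa-like cells. Without thinning the shares were 83.7%, 46.9%, 3.78% and 4.57% over the 4 libraries summed. The median depth was 110337 UMIs in oocyte-like cells and 15610 to 31892 UMIs in the 4 granulosa-like clusters. The thinned shares of granulosa-like cells overlapped those of fibroblast-like cells, and the low Kit signal was not read as expression. The share of RNA free in the droplets was not estimated.

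Kitl was highest in granulosa-like cells, at 253 CPM (251 to 255), and these cells gave 77.2% of its UMIs. Endothelial-like cells were next with 134 (129 to 140), followed by erythroid-like cells with 114 (103 to 127) and epithelial-like cells with 109 (104 to 113). The counting interval of endothelial-like cells lay above those of the other 2, which overlapped. Over libraries, however, endothelial-like cells at 118 to 153 and erythroid-like cells at 89.8 to 132 overlapped. Gm37350 was among the 10 leading genes of the erythroid-like cells and of each granulosa-like cluster. Granulosa RNA in the erythroid-like cells was not tested as a source. Fibroblast-like cells were at 59.0 and perivascular smooth muscle-like cells at 55.0. Oocyte-like cells were at 27.0. After thinning, a Kitl UMI was seen in 33.3% to 38.0% of granulosa-like cells, 23.0% to 26.3% of endothelial-like cells and 2.44% to 6.16% of oocyte-like cells.

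Foxo3 and Tsc2 shared Kit's preference for oocyte-like cells. Foxo3 was at 93.3 (91.1 to 95.5) there, with 88.3 to 100.7 over the 4 libraries, against, among groups of at least 50 cells, 42.5 (33.5 to 53.1) in macrophage-like, 27.5 in fibroblast-like and 21.8 in granulosa-like cells. Tsc2 was at 77.6 (75.6 to 79.7) in oocyte-like cells, with 69.6 to 85.1 over libraries, and next at 29.4 (26.7 to 32.3) in endothelial-like cells. Tsc1 had the same leader among groups of at least 50 cells, with a smaller gap, 34.2 (32.9 to 35.6) in oocyte-like cells and 25.6 (23.1 to 28.2) in endothelial-like cells. The Tsc1 ranges over libraries, 28.1 to 37.1 and 18.7 to 28.7, overlapped.

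The kinases were spread differently. Among groups of at least 50 cells Akt1 was lowest in oocyte-like cells, at 51.6 (49.97 to 53.3), and highest in pericyte-like cells, at 175 (165 to 186), with 160.0 in endothelial-like, 153 in fibroblast-like and 97.8 in granulosa-like cells. Pik3ca was at 88.8 (81.4 to 96.7) in pericyte-like cells and between 31.1 and 45.2 in the other groups of at least 50 named cells, oocyte-like cells being at 42.4 and granulosa-like cells at 37.2. Rps6kb1 was at 77.6 (76.5 to 78.6) in fibroblast-like cells, 64.6 in granulosa-like cells and 50.2 in oocyte-like cells.

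Set against granulosa-like cells, oocyte-like cells held 239 CPM of Kit against 2.29 CPM, for which no fold is given because the lower level was not read as expression. They held 4.27 times the level of Foxo3 (4.13 to 4.42), 3.72 times that of Tsc2 (3.59 to 3.85) and 1.71 times that of Tsc1 (1.63 to 1.79). The ratio was 1.14 for Pik3ca, 0.777 for Rps6kb1, 0.528 for Akt1 and 0.107 for Kitl. In each of the 4 libraries Kit, Foxo3 and Tsc2 were over 1.5-fold higher in oocyte-like cells, 3 of 8 genes against 30.2% of all genes compared, and Akt1 and Kitl were over 1.5-fold lower, 2 of 8 against 25.7%. These shares are near the background, so the split is a description of single genes and not a property of the set.

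Over the list, 20 of 67 genes with at least 50 UMIs in both cell types were over 1.5-fold higher in oocyte-like cells in 4 of 4 libraries and 14 were over 1.5-fold lower, against 30.2% and 25.7% of all genes compared, so these counts too are near the background. The partners named next were picked as relatives of the 8 genes after their values were seen. Akt2, a relative of Akt1, was higher in oocyte-like cells at 2.46 times the granulosa-like level, as was the AKT-activating kinase gene Pdpk1 at 2.86, while Akt1 was lower. Of the PI3K catalytic subunits, Pik3cd, the delta isoform, was at 45.0 CPM in oocyte-like and 0.744 in granulosa-like cells, and Pik3cb was at 10.3 and 5.29. Pik3cg, the gamma isoform, was lower in oocyte-like cells, at 0.139 against 1.49 CPM, with 10 UMIs in oocyte-like cells. Both levels lay below the 2.29 CPM of Kit that was not read as expression, so no ratio is given. Rhebl1 was at 55.7 in oocyte-like and 5.55 in granulosa-like cells, a ratio of 10.0, while Rheb had a ratio of 0.870. Among genes with at least 50 UMIs in both cell types, the smallest ratio after Kitl was that of the kinase gene Src, at 0.278. Inpp5d, a lipid phosphatase best known from blood cells, was at 13.0 CPM in oocyte-like and 0.158 in granulosa-like cells. The lower Inpp5d level rests on 50 UMIs and, as for Kit, no fold is given.

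Oocyte-like cells were not uniform. In 76 of them, in 2 of 8 sub-clusters, Gdf9 and Bmp15, growth factors that oocytes of growing follicles secrete, were high, at 5066 and 383 CPM against 633 and 9.24 in the other 496. These 76 cells came unevenly from the libraries, with 43 from sham-treated and 19 from irradiated wild-type ovaries and 5 and 9 from the Chek2-/- ovaries. Tsc2 was at 39.2 (35.2 to 43.6) in Gdf9-high and 82.9 (80.6 to 85.1) in Gdf9-low oocyte-like cells, and the 2 ranges over libraries, 35.9 to 57.6 and 73.3 to 91.3, did not overlap. Akt1 ran the other way, at 74.5 (68.8 to 80.4) and 48.5 (46.8 to 50.2), with library ranges of 65.1 to 80.4 and 46.0 to 51.0. Foxo3 was at 120 (113 to 127) and 89.6 (87.3 to 92.0), with overlapping library ranges, and Kit was at 265 and 235. The sub-clusters were defined on the same cells, so these are descriptions and not tests. Depth differed too, with medians of 45410 and 11630 UMIs in the Gdf9-high sub-clusters 0 and 3. The medians were 112900 to 282800 in sub-clusters 1, 2, 4 and 5, and 4824 and 3106 in sub-clusters 6 and 7. The part of depth in the differences between Gdf9-high and Gdf9-low cells was not tested. Of 6 markers of primordial-type oocytes, 4 were lower in Gdf9-high cells, Sycp3 at 243 against 833, Sohlh1 at 82.2 against 391, Sycp1 at 81.9 against 159 and Hormad1 at 4.5 against 10.4. The other two were not, Lhx8 at 258 against 252 and Taf4b at 39.6 against 33.9. The other 4 markers of growing oocytes were also higher in Gdf9-high cells, Zp1 at 667 against 374, Nlrp5 at 1290 against 741, Zp3 at 2361 against 1949 and Zp2 at 1805 against 1702. The highest Zp1, Zp2 and Zp3 levels were in sub-cluster 2, which had Gdf9 at 1598 and was counted as Gdf9-low. In sub-cluster 2 Tsc2 was at 88.2 and Akt1 at 51.7, so these genes did not follow the Gdf9-high cells there. Fibroblast markers were also higher in Gdf9-high cells, Col1a1 at 61.1 against 37.0 and Dcn at 55.2 against 35.9, with overlapping library ranges. Akt1 was at 153 in fibroblast-like cells, and fibroblast RNA was not tested as a source.

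Granulosa-like cells fell into 4 clusters that differed in Kitl. Cluster 1, with Amh at 619 CPM, was highest with Kitl at 434 in sham-treated wild-type, 490 in irradiated wild-type, 302 in sham-treated Chek2-/- and 271 in irradiated Chek2-/- cells. Cluster 0, of dividing cells with the mitotic gene Birc5 at 458, held 297, 263, 222.5 and 197 in the same order. Cluster 2 held 205, 205.5, 178 and 170.4. Cluster 10, in which Amh was at 22.1 and Btg2, a gene of non-dividing cells, at 1384, held 213, 194, 205 and 215. In clusters 0, 1 and 2 both Chek2-/- libraries were below both wild-type libraries, and in cluster 10 they were not. Cluster 10 made up 314, 604, 607 and 418 cells of the libraries in that order.

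**Figure D4:**
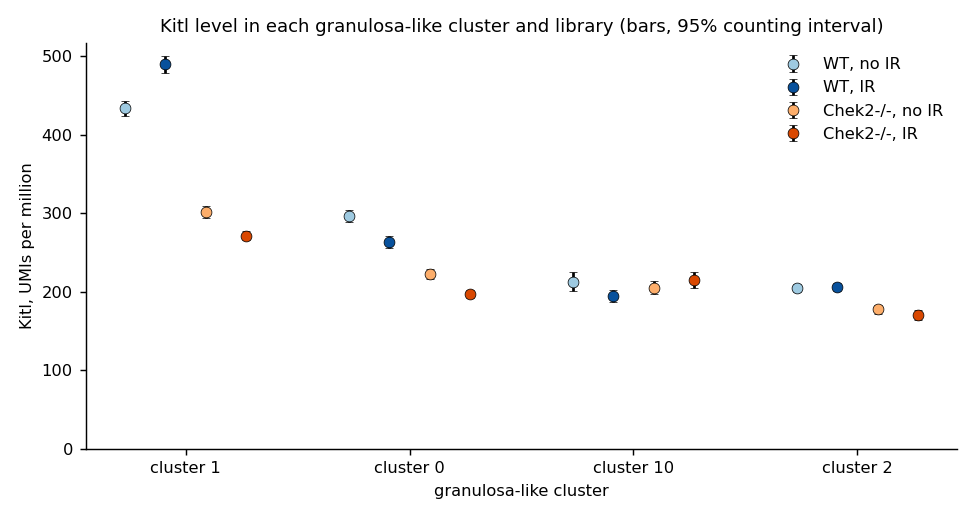
Level of Kitl (vertical axis, CPM) in the 4 granulosa-like clusters (horizontal axis), with 1 point per library and bars for the 95% counting interval. In cluster 1 the wild-type libraries are at 434 and 490 and the Chek2-/- libraries at 302 and 271, while cluster 10 lies between 194 and 215 in the 4 libraries.

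Between sham-treated libraries Kitl in granulosa-like cells was therefore lower in Chek2-/- than in wild-type cells, 230 against 290.4 CPM, a ratio of 0.792 (0.776 to 0.808), whereas in whole ovaries Kitl was higher in Chek2-/-. It was also lower in endothelial-like cells, at 118 against 153, and in fibroblast-like cells it was at 60.2 against 62.3. With 1 library per group no test of the single-cell difference was possible, and the cause of the opposite directions was not tested.

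Between irradiated and sham-treated single-cell libraries most of the 8 genes differed by less than 1.5-fold. In wild-type oocyte-like cells 1 of 8 genes passed a 1.5-fold difference in either direction, where 20.5% of all genes did, and in Chek2-/- oocyte-like cells 0 of 8 did against 4.38%. In granulosa-like cells 0 of 8 did in wild-type against 3.33% and 0 of 8 in Chek2-/- against 2.17%. Between the sham-treated libraries 1 of 8 passed it in oocyte-like cells, Kitl, against 8.12% of all genes, and 1 of 8 in granulosa-like cells, Kit, against 2.78%. Kit was at 1.70 CPM in Chek2-/- and 2.91 CPM in wild-type granulosa-like cells, levels near the 2.76 CPM of fibroblast-like cells.

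**Figure D5:**
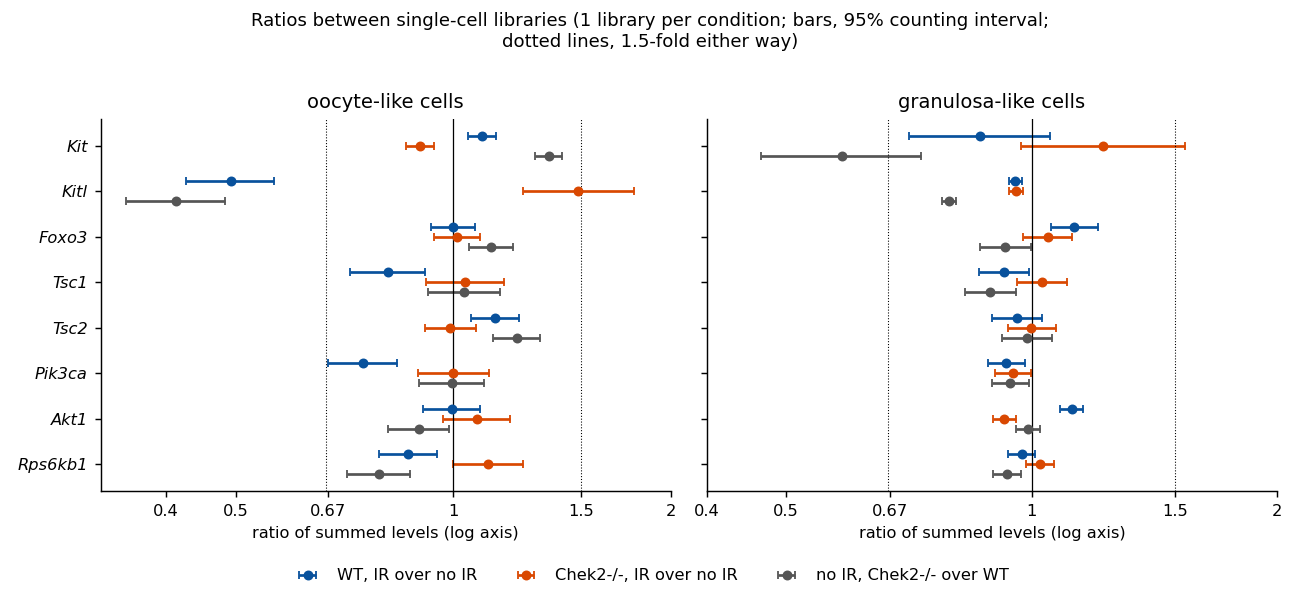
Ratio of summed levels between libraries (horizontal axis, log scale) for each of the 8 genes in oocyte-like and granulosa-like cells, with bars for the 95% counting interval and dotted lines at 1.5-fold. In oocyte-like cells Foxo3 lay at 0.999 and 1.01 after irradiation in wild-type and Chek2-/- cells, and in the irradiation ratios of these cells Kitl, at 0.492 in wild-type, was the one gene beyond a dotted line.

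Kit in oocyte-like cells was 1.095 times as high in the irradiated as in the sham-treated wild-type library (1.05 to 1.14) and 0.900 times as high in Chek2-/- (0.861 to 0.941). Sham-treated Chek2-/- oocyte-like cells held 1.35 times the Kit level of wild-type cells (1.298 to 1.41). Taking the mean over cells in place of summed UMIs gave 1.39 for wild-type irradiation and 0.826 for Chek2-/-. Of the 165 oocyte-like cells of the irradiated wild-type library, 37 formed a sub-cluster found in no other library, led by genes that include Acta2, Col1a1 and Dcn, with Col1a1 at 811 CPM. Without these cells the wild-type Kit ratio was 1.097. That library also had the shallowest oocyte-like cells, with a median of 17940 UMIs against 181800, 159200 and 122800 in the other libraries, and its part in these ratios was not tested. With cells of at least 50000 UMIs alone, the Kit ratio was 1.115 in wild-type and 0.907 in Chek2-/-.

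Foxo3 in oocyte-like cells was at 88.4 and 88.3 CPM in sham-treated and irradiated wild-type libraries and at 99.6 and 100.7 in Chek2-/- libraries. The irradiation ratios were 0.999 (0.931 to 1.07) and 1.01 (0.939 to 1.09). Tsc2 had a ratio of 1.14 (1.06 to 1.23) in wild-type and 0.989 in Chek2-/-, Tsc1 had 0.811 (0.719 to 0.915) and 1.04, Pik3ca had 0.749 (0.671 to 0.835) and 1.00, Akt1 had 0.994 and 1.077, and Rps6kb1 had 0.866 and 1.11. Of these the interval excluded 1 for Tsc1, Tsc2, Pik3ca and Rps6kb1 in wild-type cells, which states counting error and not replicate error. The libraries filled the oocyte sub-clusters unevenly. Sub-cluster 6, with a median of 4824 UMIs, held 5 cells of the sham-treated and 63 of the irradiated wild-type library, and 6 and 36 of the Chek2-/- libraries, while sub-cluster 4 held 92, 21, 16 and 40. Sub-cluster 6 was led by genes that include Cst6, Fermt1 and Hmcn2, which the paper lists as radiation-responsive. Mdm2 was at 1027 CPM in sub-cluster 6, with 34.2 to 1099 over its libraries, and 95.8 in sub-cluster 4. Cdkn1a was at 287 and 52.2, with 17.1 to 303 over the libraries of sub-cluster 6 and 41.8 to 155 over those of sub-cluster 4. The medians over libraries were closer, at 84.6 and 70.7 for Mdm2 and 75.9 and 50.1 for Cdkn1a. Depth and the share of irradiated wild-type cells were not tested as sources of these gaps. Summed levels of the members also differed, with Pik3ca at 30.4 CPM in sub-cluster 6 and 47.8 in sub-cluster 4, Tsc1 at 26.2 and 35.1, and Tsc2 at 99.5 and 72.2. The library ranges overlapped for each of these members, at 17.1 to 64.9 and 39.45 to 51.9 for Pik3ca. They were 0 to 34.2 and 23.5 to 42.7 for Tsc1, and 78.2 to 102.7 and 58.6 to 83.0 for Tsc2. Without the 37 cells found in the irradiated wild-type library alone, the wild-type ratios were 0.818 for Tsc1, 1.15 for Tsc2 and 0.752 for Pik3ca, and in cells of at least 50000 UMIs they were 0.808, 1.17 and 0.760. The part of the sub-clusters in these ratios was not otherwise tested.

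The gene beyond 1.5-fold was Kitl, at 37.9 CPM in sham-treated and 18.6 in irradiated wild-type oocyte-like cells, a ratio of 0.492 (0.427 to 0.565), and at 15.7 and 23.3 in Chek2-/- cells, a ratio of 1.49 (1.25 to 1.78). Kitl is a granulosa gene, and its UMIs in oocyte-like cells were unevenly held: 1455 of 1942 were in 1 sub-cluster of 169 cells. That sub-cluster held 92 cells of the sham-treated wild-type library, 21 of the irradiated wild-type library and 16 and 40 of the Chek2-/- libraries. The granulosa marker Inha moved the same way in Gdf9-low oocyte-like cells, at 96.4 in the sham-treated and 42.6 in the irradiated wild-type library and at 54.1 and 69.4 in Chek2-/-. Granulosa RNA carried with oocytes was not tested as a source. Taking the mean over cells, the wild-type Kitl ratio was 1.32, and with cells of at least 50000 UMIs alone it was 0.369, so its direction depended on how cells were weighted.

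Among those of the 69 genes with at least 50 UMIs in both libraries, the largest irradiation ratios in wild-type oocyte-like cells were those of Ddit4, from 16.1 to 133 CPM, a ratio of 8.27 (7.46 to 9.18), and Sesn2, from 4.47 to 32.8, a ratio of 7.32 (6.00 to 8.98). In granulosa-like cells of the same libraries Sesn2 had a ratio of 3.95 (3.44 to 4.55) and Ddit4 one of 1.29 (1.21 to 1.37). In Chek2-/- oocyte-like cells Ddit4 had a ratio of 3.30 (2.69 to 4.07), with 113 UMIs in the sham-treated library. Sesn2 had 1.38 (0.965 to 1.98) there, with 48 UMIs in the sham-treated library. In whole Chek2-/- ovaries the Ddit4 log2 fold change ran the other way, from -0.24 to -0.10 over 32 alternative analyses, and was never called. The part of depth and sub-clusters in the Ddit4 ratio was not tested. In Chek2-/- granulosa-like cells the ratios were 0.748 for Ddit4 and 1.04 for Sesn2. The smallest ratio in wild-type oocyte-like cells was that of Cdkn1b, from 94.2 to 33.2, a ratio of 0.353 (0.318 to 0.390). Over all libraries Cdkn1b was at 176 CPM in granulosa-like and 65.9 in oocyte-like cells. Sham-treated Chek2-/- oocyte-like cells held 0.55 times the wild-type level of Cdkn1b. As for Kitl, granulosa RNA carried with oocytes was not tested as a source, nor was the part of depth or sub-clusters.

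Across the 40 combinations of 10 cell groups and 4 libraries, the genes whose log level was most like that of Kit were Ppp1r11 (Pearson's r = 0.891), Ly6a (0.883) and Cnot6l (0.865), of 14401 genes compared. For Kitl they were Sh3bp4 (0.928), Erbb2 (0.912) and Arhgap29 (0.895), and for Foxo3 they were Coro6 (0.882), Shcbp1l (0.875) and Mia3 (0.875). Between members the highest r was 0.675 for Kitl with Tsc1, followed by 0.641 for Foxo3 with Tsc2, and Kit with Kitl had -0.444. For Kitl and Tsc1 the points include lymphocyte-like cells, with 7 UMIs of each gene in all and none in the lowest library, and their part was not tested. Tsc1 was at 34.2 CPM in oocyte-like and 20.1 in granulosa-like cells, where Kitl was at 27.0 and 253. The 40 points share libraries, depth and cells, so these values describe likeness only.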

How the data were processed

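Whole-ovary libraries (24) and single-cell libraries (4) were analysed. Per the labels and methods, the authors trimmed bulk reads with Trim Galore 0.6.5 and estimated transcript abundance with Salmon 1.3.0, and they deposited estimated counts per gene, which are fractional and were rounded here. Single-cell counts (UMIs) were deposited as Cell Ranger matrices on mm10. The bulk annotation stated in the methods and the mm10 label may differ, so no coordinates are given.

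Symbols were matched to identifiers by the annotation. Counts were tested with edgeR 4.0.16 (R 4.3.3; quasi-likelihood, TMM, genes with at least 10 counts over 24 libraries, Benjamini-Hochberg adjustment, threshold 0.05). Cells with at least 1000 genes, at most 20% mitochondrial and at most 50% ribosomal UMIs were kept, Scrublet doublets (4.02% to 5.47%) were removed, and clusters came from scanpy 1.11.5 (2000 variable genes without the 69, 30 components, 15 neighbours, Leiden resolution 0.5). A cluster was named when at least 60% of a marker list, and at least 3 markers, were seen in 25% of its cells at 2-fold the median of clusters; these limits were set after the clusters were seen. The 8 genes and the lists were chosen with earlier results of these data known. Named pathway genes were those past the threshold, or with the 3 largest and 3 smallest single-cell ratios, except where stated; some genes of the list are counted but not reported here by name. Ratios carry conditional binomial intervals at 95%. Scripts were tested on simulated data. Alternatives included DESeq2 1.42.0, limma 3.58.1, other filters and leaving out each library.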

Additional observations from a re-analysis of the deposited data

Results flagged for a closer look

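Of 60 combinations of 15 genes and 4 groups, 10 held a library far from the other 5, where chance gives about 1 in 20. In the sham-treated Chek2-/- group library 6 held the lowest Kit, 220.8 CPM with the next at 291.1 CPM, the highest Kitl, 268.3 CPM with the next at 183.8 CPM, and the lowest Foxo3, 119.4 CPM with the next at 149.3 CPM. In the irradiated Chek2-/- group library 6 held the highest Kitl, 260.2 CPM with the next at 177.9 CPM, and the lowest Rhebl1, 7.543 CPM with the next at 8.737 CPM. These are the libraries with low oocyte and granulosa marker sums.

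Tsc2 stood apart in sham-treated wild-type library 1, lowest at 133.5 CPM with the next at 147.3 CPM, and in irradiated wild-type library 4, highest at 164.0 CPM with the next at 130.8 CPM. Akt1 was lowest in irradiated wild-type library 5, at 223.4 CPM with the next at 243.4 CPM. Rhebl1 was lowest in sham-treated wild-type library 2, at 7.259 CPM with the next at 8.41 CPM, and Prkaa1 was highest in sham-treated wild-type library 1, at 64.2 CPM with the next at 58.61 CPM.

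The irradiation effect was larger in wild-type than in Chek2-/- ovaries for Sesn2, by 1.182 on the log2 scale (edgeR adjusted p = 0.0001294), and for Ddit4, by 0.6847 (edgeR adjusted p = 0.003077).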

How the results depend on the processing

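Beside the counts of 0, 0, 0 and 1 of the 8 genes called, leaving out each library in turn gave 0 to 1 for irradiation in wild-type, 0 to 1 for the difference between genotypes' effects and 0 to 2 for the sham-treated genotypes. For the latter, RLE size factors and filterByExpr gave 2, DESeq2 4, and a 2-fold minimum 0. For the 69 genes, leaving out libraries gave 3 to 5, 2 to 4 and 1 to 7, a 2-fold minimum 1, 1 and 0, DESeq2 4 for the difference between effects and 12 for the sham-treated genotypes, and a fit on the compared groups alone 3. Without irradiated wild-type library 4 the wild-type irradiation counts were 1 of 8 and 5 of 69, and the counts for the difference between effects were 1 and 4. The causes were not tested.

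Replicate numbers were not taken to pair the libraries, since the labels state no shared litter or day and same-numbered libraries did not all correlate above 0.1 (-0.194 to 0.657). As a hint of shared sources from the data, 12 of 24 correlated best with their own number, and sham-treated and irradiated Chek2-/- libraries of one number had 0.0577 to 0.657. With the replicate number as a block, 3 of 8 (Kitl, Foxo3 and Rps6kb1) and 10 of 69 genes were called between sham-treated genotypes. The share of all genes called with the block is not given here, so these counts are no result about the set or the list.

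Over all genes, the 1430 calls between sham-treated genotypes became 2507 with DESeq2, 785 with the compared groups alone, 211 with a 2-fold minimum and 573 to 1800 without single libraries. For irradiation in wild-type 646 became 288 with a 2-fold minimum and 1009 without both Chek2-/- libraries numbered 6. For the difference between effects 277 became 458 with DESeq2 and 167 with a 2-fold minimum. For irradiation in Chek2-/- 3 became 14 with DESeq2, 1 with the compared groups alone or a 2-fold minimum, and 2 to 5 without single libraries.

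Signs turned in uncalled log2 fold changes. With the compared groups alone Pik3ca after irradiation in Chek2-/- was -0.0002 and Kit between sham-treated genotypes -0.0015. Without single libraries, Akt1 ran from -0.0456 to 0.0356 for irradiation in wild-type, from -0.0343 to 0.0956 in Chek2-/- and from -0.1123 to 0.0279 for their difference. In Chek2-/- irradiation Kitl ran from -0.2087 to 0.0777, Pik3ca from -0.018 to 0.0147 and Rps6kb1 from -0.0109 to 0.0447, and between sham-treated genotypes Kit ran from -0.0188 to 0.0778.

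In single cells, a mean over cells gave Kit irradiation ratios in oocyte-like cells of 1.387 in wild-type and 0.8259 in Chek2-/-. The Kitl irradiation ratio in wild-type granulosa-like cells was 1.004 by that mean, 0.9886 at Leiden resolution 1.0, 0.9921 with at most 10% mitochondrial UMIs and 0.9981 in cells of at least 5000 UMIs. In Chek2-/- it was 0.9352 at resolution 1.0 and 0.9307 in cells of at least 5000 UMIs. Between sham-treated libraries it was 0.8197 by the mean, 0.7678 with at most 10% mitochondrial UMIs and 0.7731 in cells of at least 5000 UMIs. Leaving out both libraries numbered 6, cells of at least 50000 UMIs and leaving out 37 oocyte-like cells led by fibroblast genes were chosen after seeing the data.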
